A study of Homo sapiens with 6 samples.

Results

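The adaptors and kinases that carry the signal from Toll-like receptors into the cell were followed in BL-2, an established B cell line of Burkitt lymphoma origin. Cells were left untreated (control) or were exposed for 6 h to lipopolysaccharide (LPS), the outer membrane glycolipid of Gram-negative bacteria. The genes were the TIR-domain adaptors MYD88, TIRAP, TICAM1 and TICAM2, the kinases IRAK1, IRAK2, IRAK3 and IRAK4, and the signalling proteins TRAF6 and TOLLIP. Members were all probe sets to which the platform annotation gives one of these symbols and no other. That rule found 20 probe sets of the 54675 in the table. They stood for 8 of the 10 genes, out of 19775 genes measured in all. TICAM2 had 2 probe sets that carry a further symbol, so it was not analysed here, and no probe set was listed for IRAK4. There were 3 control samples and 3 LPS samples, with an Affymetrix array for each. No dose of LPS is given in the labels, and they do not say whether the samples of a group were separate cultures, so the spread behind each p-value may be partly technical. All samples came from this single cell line.

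In textbook accounts, Toll-like receptors and receptors of the interleukin-1 family recruit MYD88 through a shared domain, and TIRAP brings MYD88 to certain receptors at the cell surface, TLR4 among them. MYD88 then gathers IRAK4, which activates IRAK1 and IRAK2, and these pass the signal to the ubiquitin ligase TRAF6 and on to NF-kB and MAP kinases. TICAM2 and TICAM1 form a separate arm that leads from TLR4 to type I interferon genes, while IRAK3 and TOLLIP are known for restraining the pathway.

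Values are deposited log2 expression values, and a difference is LPS minus control on that scale. The level of a probe set depends on its own probes, so LPS differences were taken within a probe set. Comparisons of level between probe sets, as with the markers below, are rough. The array medians ran from 6.42 to 6.47 and the lowest value in the table was 5.46, so probe sets near these levels may be close to background, which can compress a difference. The B cell markers MS4A1, CD79A, CD79B, PAX5, CD22 and BLNK all lay in the upper quartile of probe sets (above 7.41), as did 3 of 3 measured germinal centre markers. The mean of those 3, MME, BCL6 and CD38, was 10.36 to 10.42 on the control and 9.99 to 10.11 on the LPS arrays. Of the 3, 0 passed the limma test used below, and the part of this mean in the members' results was not tested. Of 7 monocyte and 8 T and NK cell markers 0 lay in the upper quartile, and the mean of either list lay between 6.23 and 6.37 on every array. Of 6 markers of fibroblasts and epithelium only COL1A1 did. The hybridisation controls added to each array put the arrays into set A, with control 1, LPS 1 and LPS 2, and set B, with control 2, control 3 and LPS 3. The sets are unbalanced between the groups, so for each member the differences within each set are given beside the pooled one of its brightest probe set. Within the sets the signs differed in 6 of the 20 probe sets.

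None of the 20 probe sets passed the limma test (adjusted p under 0.05 over all 54613 tested), which called 0.264% of all probe sets. Of the 20, 3 had an unadjusted p under 0.05, and 8.08% of all probe sets did. In 5 of the 20 the LPS and control values did not overlap, with LPS below in 4 and above in 1, where 13.4% of all probe sets were separated in this way. By the brightest probe set of each gene, 6 of the 8 genes had a higher mean and 2 a lower mean after LPS. The median difference over the 8 genes was 0.051, against 0.0016 over all 19775 genes, and 50.8% of all genes had a higher mean after LPS. That median was 0.00095 without control 3, 0.0059 without probe sets of the suffixes _x_at and _s_at, and 0.018 when a gene's probe sets were averaged. Without regard to sign, the median difference was 0.11 over the 8 genes and 0.054 over all genes. The median size of the difference between array sets was 0.10 over the 8 genes, against 0.059 over all genes. In 3 of the 20 probe sets all arrays of set A lay on one side of all those of set B, and 19.1% of all probe sets were parted in this way. In 4 of the 8 genes the set difference was larger than the LPS difference, a count not made over all genes. The median residual SD of the 8 genes was 0.085, against 0.077 over all genes. The largest of the 20 LPS differences in size was 0.28, and the 95% intervals of the 20 lay within -0.41 to 0.54.

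**Figure D1:**
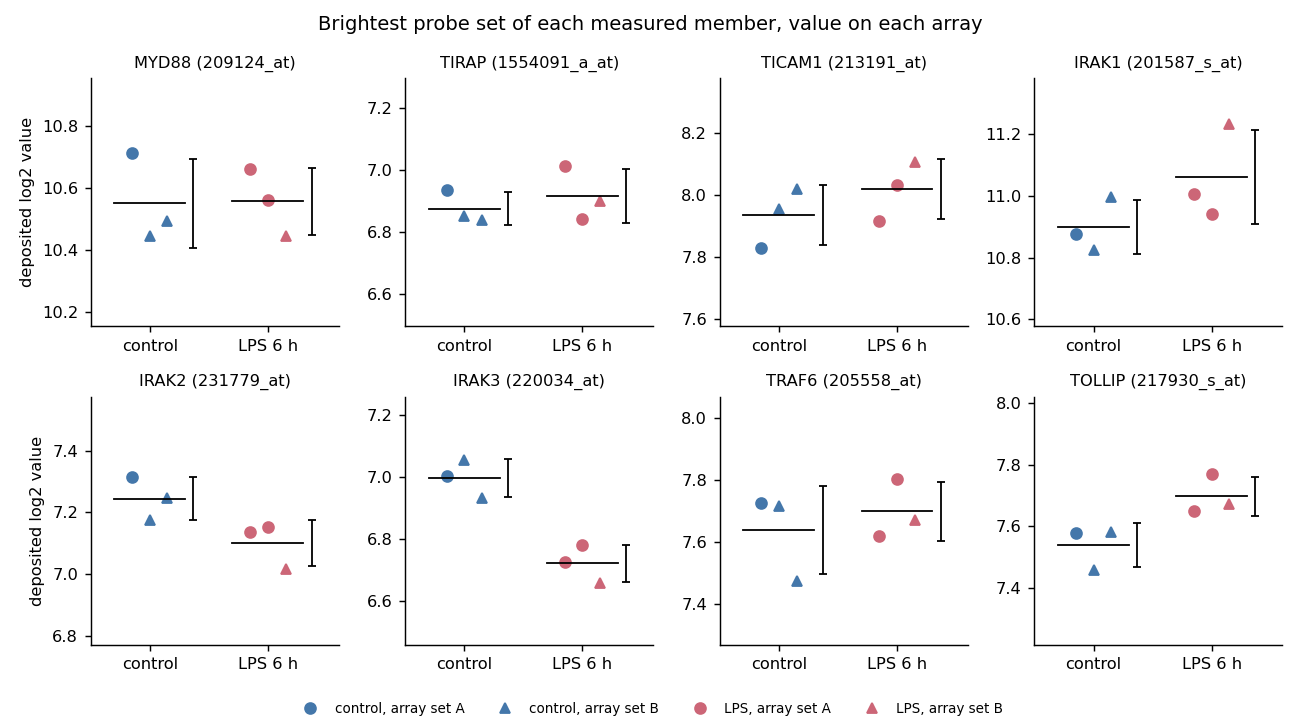
Deposited log2 value (y axis) of the brightest probe set of each measured member on the 3 control (blue) and 3 LPS (red) arrays; circles are array set A, triangles set B, lines are group means and bars 1 SD to either side. Each y axis spans the same width. The IRAK3 and IRAK2 LPS points all lie below the controls, those of TOLLIP above, and the MYD88 groups overlap around 10.55.

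Among the adaptors, MYD88, on which the pathway converges, was measured by a single probe set (209124_at). Its values were 10.71, 10.44 and 10.49 in controls 1 to 3 and 10.66, 10.56 and 10.45 in LPS 1 to 3. The groups overlapped fully, and in each group the arrays of set A were the higher ones. The control mean was 10.55 ± 0.14 and the LPS mean 10.56 ± 0.11 (SD, n = 3). They differed by 0.0059 (95% interval -0.21 to 0.22, limma adjusted p = 0.995). Within the sets the difference was -0.10 and -0.023, and with array set as a block -0.063 (adjusted p = 0.869). Set B minus set A, with LPS in the fit, was -0.21 for MYD88 (adjusted p = 0.124).

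TICAM1, the adaptor of the interferon arm, stood at 7.83, 7.96 and 8.02 in the controls and at 7.92, 8.03 and 8.11 after LPS. Its groups overlapped. The difference was 0.084 (SE 0.081, 95% interval -0.090 to 0.26, limma adjusted p = 0.866), with 0.15 within set A and 0.12 within set B.

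TIRAP, which sorts MYD88 to the membrane, was read by 4 probe sets, all of them with overlapping groups. The brightest stood at 6.94, 6.85 and 6.84 in the controls and at 7.01, 6.84 and 6.90 after LPS, a difference of 0.042 (95% interval -0.099 to 0.18, limma adjusted p = 0.930). Within sets A and B it was -0.0094 and 0.054. The others gave 0.016, 0.038 and -0.059, and 2 of these had means of 6.00 to 6.21, below the array medians. TIRAP thus had low signal in all probe sets but the brightest and 1552804_a_at, whose group means were 6.65 and 6.67.

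**Figure D2:**
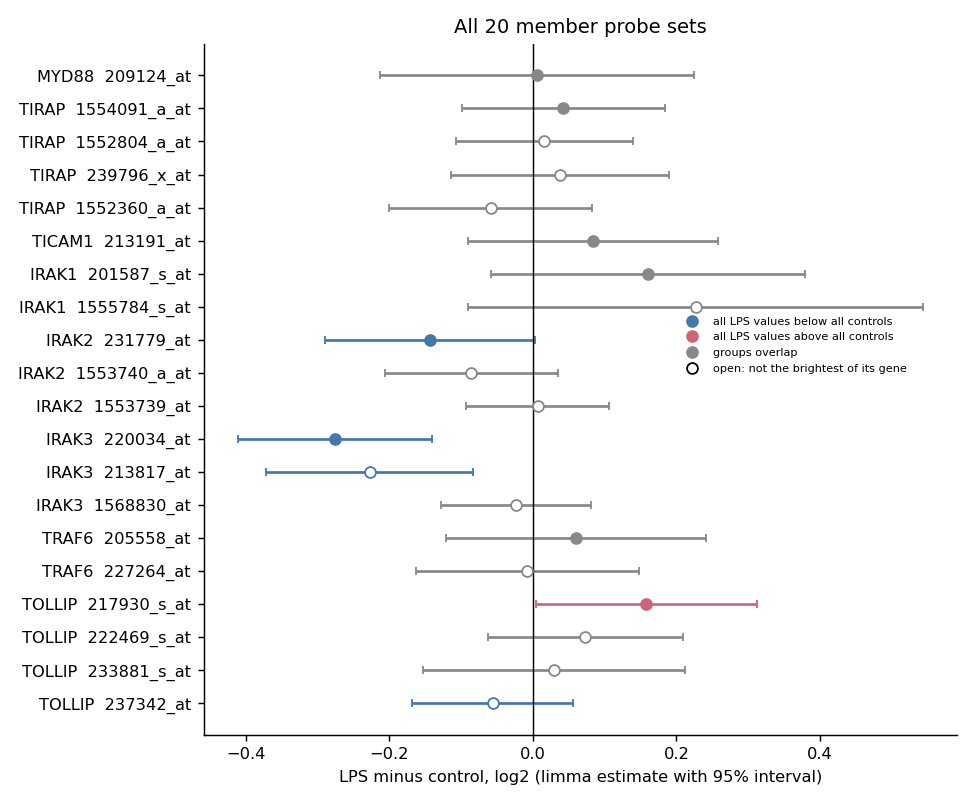
LPS minus control on the log2 scale (x axis) for each of the 20 member probe sets, grouped by gene, with the 95% interval of the limma fit; filled points mark the brightest probe set of a gene and colours mark whether the groups overlap. The intervals of 220034_at and 213817_at of IRAK3 lie below 0, that of 217930_s_at of TOLLIP reaches down to 0.0039, and the other 17 span 0.

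The differences of the kinases lay on both sides of 0. IRAK3, also called IRAK-M, is a relative of the IRAK kinases that lacks kinase activity and holds back signalling from the MYD88 complex. Its brightest probe set (220034_at) stood at 7.00, 7.06 and 6.93 in controls 1 to 3 and at 6.72, 6.78 and 6.66 in LPS 1 to 3. Every LPS value lay below every control value, with a gap larger than the spread within either group. The means were 7.00 ± 0.062 and 6.72 ± 0.060 (SD, n = 3), a difference of -0.28 (SE 0.063, 95% interval -0.41 to -0.14), which is a level 1.21-fold higher in control cells. It was the member closest to the threshold without passing it (limma unadjusted p = 0.000656, adjusted p = 0.117), at place 306 by p among all tested probe sets. Within sets A and B the difference was -0.25 and -0.33. In bulk RNA, fewer cells expressing a gene and less RNA per cell cannot be told apart.

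A further IRAK3 probe set (213817_at) also had all LPS values below the controls, at 6.40, 6.64 and 6.58 in control and 6.35, 6.34 and 6.25 in LPS cells. Its difference was -0.23 (95% interval -0.37 to -0.083, limma adjusted p = 0.286), and it was uneven between the array sets, being -0.055 among the arrays of set A and -0.36 among those of set B. The third (1568830_at), at 6.13 to 6.19 on all arrays and so below the array medians, gave -0.024 with overlapping groups. The mean over all 3 IRAK3 probe sets differed by -0.18 (adjusted p = 0.159).

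Whether IRAK3 passes depends on the fit. With array set as a block, 220034_at passed (difference -0.29, 95% interval -0.43 to -0.16, limma adjusted p = 0.0211, against 0.0211 to 0.575 over all alternatives tried), as the 1 member of 20 to do so, where 1.34% of all probe sets passed that fit. In that blocked fit it no longer passed without control 1 (difference -0.33, adjusted p = 0.181), without LPS 1 (-0.29, 0.0925) or without LPS 3 (-0.25, 0.575), and it passed without each of the other 3 arrays (adjusted p of 0.0221 to 0.0438). Without control 1 or LPS 3 one set holds a single group, so the other set alone gives the difference.

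IRAK2, a relative that sustains signalling to TRAF6, was lower after LPS by its brightest probe set (231779_at) on every array, at 7.31, 7.17 and 7.25 in control and 7.14, 7.15 and 7.02 in LPS cells. The groups were apart, but LPS 2 and control 2 differed by little, and the test was not passed: the difference was -0.14 (SE 0.068, 95% interval -0.29 to 0.0034, limma adjusted p = 0.631). Within sets A and B it was -0.17 and -0.19. The other IRAK2 probe sets had overlapping groups, with -0.086 for 1553740_a_at and 0.0068 for 1553739_at. The latter lay between 5.80 and 5.89 on all arrays, near the lowest values of the table.

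**Figure D3:**
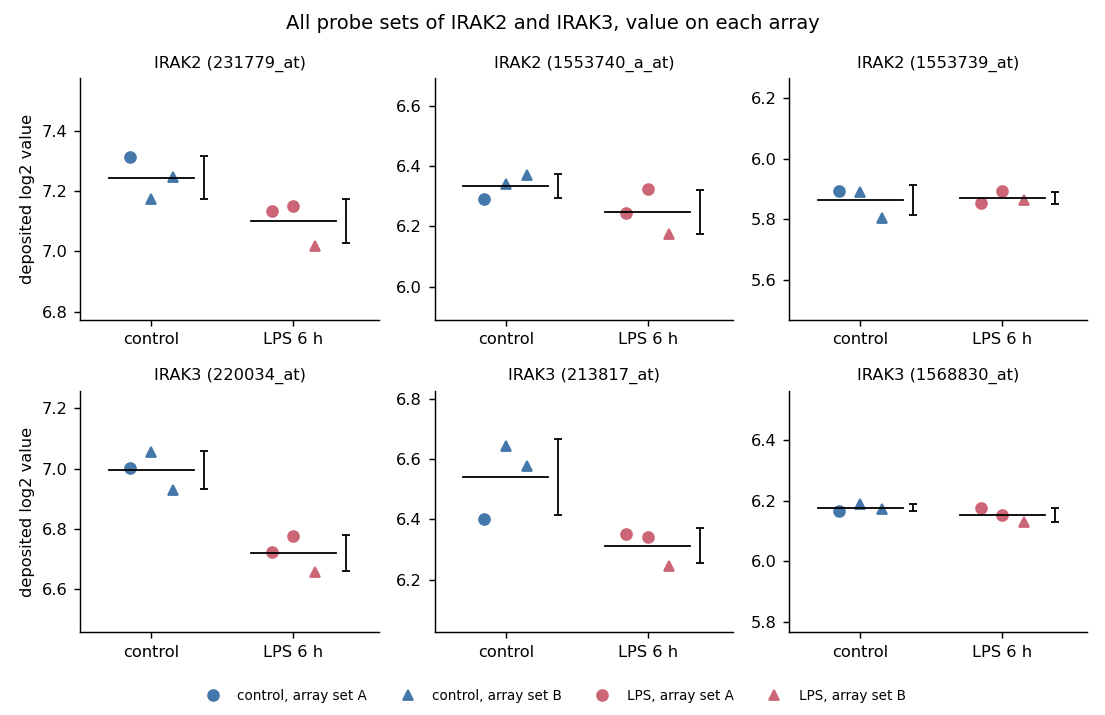
Deposited log2 values (y axis) of all 3 probe sets of IRAK2 (top) and all 3 of IRAK3 (bottom) on each control (blue) and LPS (red) array, with group means as lines and 1 SD to either side as bars; circles are array set A, triangles set B, and each y axis spans the same width. The groups are apart in 231779_at, 220034_at and 213817_at, and overlap in the other 3.

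IRAK1, the kinase that hands the signal to TRAF6, gave differences above 0 in both of its probe sets, and neither passed. The brighter one (201587_s_at) stood at 10.87, 10.82 and 11.00 in control and at 11.01, 10.94 and 11.23 in LPS cells. LPS 3 was the highest array and the groups overlapped through control 3 and LPS 2. The difference was 0.16 (SE 0.10, 95% interval -0.059 to 0.38, limma adjusted p = 0.756), with 0.098 within set A and 0.32 within set B. With array set as a block it was 0.21 (adjusted p = 0.260).

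The other IRAK1 probe set (1555784_s_at) was parted by array set and not by treatment. It stood at 8.05, 8.22 and 8.002 on the arrays of set A (control 1, LPS 1 and LPS 2) and at 7.52, 7.58 and 7.61 on those of set B (control 2, control 3 and LPS 3). Set B minus set A was -0.50 with LPS in the fit (limma adjusted p = 0.000162), and this was the 1 member probe set to pass that comparison, in which 4.54% of all probe sets did. Its pooled LPS difference of 0.23 (adjusted p = 0.764) shrank to 0.063 and 0.058 within sets A and B.

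TRAF6, the ubiquitin ligase downstream of the kinases, stood at 7.73, 7.72 and 7.48 in control and at 7.62, 7.80 and 7.67 in LPS cells by its brightest probe set (205558_at). Of the 3 LPS values 2 lay within the range of the controls. The difference was 0.060 (SE 0.084, 95% interval -0.12 to 0.24, limma adjusted p = 0.920), with -0.014 and 0.077 within sets A and B. Its other probe set gave -0.0080 (95% interval -0.16 to 0.15).

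TOLLIP, which binds IRAK1 in resting cells and also takes part in endosomal sorting, was higher on every LPS array by its brightest probe set (217930_s_at). The values were 7.58, 7.46 and 7.58 in control and 7.65, 7.77 and 7.67 in LPS cells, so the groups did not overlap. The difference was 0.16 (SE 0.072, 95% interval 0.0039 to 0.31, limma unadjusted p = 0.0452, adjusted p = 0.608), and 0.13 and 0.15 within sets A and B. The remaining TOLLIP probe sets did not share one direction. The values were 0.073 and 0.029 for 222469_s_at and 233881_s_at, whose groups overlapped, and -0.056 for 237342_at, in which all LPS values, at 6.32 to 6.38, lay below the controls, at 6.40 to 6.42. The brightest TOLLIP probe set carries the suffix _s_at. Without _x_at and _s_at probe sets TOLLIP is represented by 237342_at, which turns its sign. That probe set lay below the array medians on every array, and the 95% interval of its difference was -0.17 to 0.056.

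Promoters are shown for IRAK3, IRAK2 and TOLLIP, the members whose brightest probe set had groups that did not overlap. They were taken from RefSeq on build GRCh38.p14, as windows from 250 bases before to 50 after an annotated gene start, which were found for 9 of the 10 genes in 10 windows (TOLLIP has 2). Capitals mark matches, on either strand, to the NF-kB consensus, to an AP-1 motif (TGANTCA), to an E-box (CACGTG) or to a GC box (GGGCGG); overlapping matches run together. The windows are IRAK3 at chr12:66188964-66189263 on the plus strand, IRAK2 at chr3:10164669-10164968 on the plus strand, and the TOLLIP window at chr11:1302741-1303040 on the minus strand, the TOLLIP start that holds NF-kB matches.
IRAK3: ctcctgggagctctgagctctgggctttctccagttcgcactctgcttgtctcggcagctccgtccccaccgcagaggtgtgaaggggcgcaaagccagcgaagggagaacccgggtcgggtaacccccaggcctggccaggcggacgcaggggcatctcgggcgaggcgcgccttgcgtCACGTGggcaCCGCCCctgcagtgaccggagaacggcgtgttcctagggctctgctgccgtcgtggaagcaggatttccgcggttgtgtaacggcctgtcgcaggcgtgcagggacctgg
IRAK2: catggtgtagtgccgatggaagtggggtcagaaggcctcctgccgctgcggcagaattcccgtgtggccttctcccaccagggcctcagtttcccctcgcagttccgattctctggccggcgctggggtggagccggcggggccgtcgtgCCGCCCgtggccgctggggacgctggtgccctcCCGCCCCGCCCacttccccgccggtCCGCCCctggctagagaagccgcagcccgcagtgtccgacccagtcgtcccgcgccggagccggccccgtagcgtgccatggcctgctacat
TOLLIP: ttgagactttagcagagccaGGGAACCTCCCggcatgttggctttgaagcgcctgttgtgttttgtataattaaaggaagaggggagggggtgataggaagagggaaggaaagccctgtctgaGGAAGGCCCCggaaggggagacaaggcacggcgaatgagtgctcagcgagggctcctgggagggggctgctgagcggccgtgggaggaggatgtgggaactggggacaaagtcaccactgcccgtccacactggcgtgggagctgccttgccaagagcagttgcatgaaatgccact

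The IRAK3 window held 1 E-box, 70 to 65 bases before the start, and 1 GC box. That of IRAK2 held 4 GC boxes, 2 of them overlapping. Neither held a match to the NF-kB consensus. Such matches were found in 3 of the 10 windows, those of TICAM1, IRAK1 and the TOLLIP start shown, where 11.3% of all 35116 windows hold one. The other TOLLIP window, at chr11:1309583-1309882, held GC boxes and no NF-kB match. Its bases were 75.7% G or C, against 58.7% in the one shown. Which TOLLIP start these cells use was not tested. The E-box was in 1 of the 10 windows (7.26% of all), the AP-1 motif in 2, those of TICAM2 and IRAK1 (7.71%), and the GC box in 9 (45% of all). A match is a description of these letters and no measurement of binding.

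The 58 measured genes of a list of 64 other Toll pathway genes give the setting of these members. Of the 58, 1 rose and 0 fell by the limma test, where 0.389% of all genes passed, and 11 had an unadjusted p under 0.05, where 9.56% of all genes did. LPS values were all above the controls in 9 and all below in 6, with 15.7% of all genes separated. The median difference was 0.012. The gene that rose was IKBKE, a kinase known to phosphorylate interferon regulatory factors, at 8.29, 8.06 and 7.94 in control and 8.81, 8.87 and 8.78 in LPS cells (adjusted p = 0.00735). Its other probe set, 214398_s_at, also rose, by 0.64 (adjusted p = 0.00556). Without control 3 or without LPS 2, 0 of the 58 genes passed, and without control 1, 3 passed. Over all 54613 tested probe sets these fits called 14, 10 and 374, against 144 with all arrays.

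The list's other leading genes by p lay on both sides of 0. TNFAIP3, the ubiquitin-editing brake on TRAF6 and NF-kB signalling, was at 8.32, 8.14 and 8.09 in control and 8.58, 8.62 and 8.53 in LPS cells (limma adjusted p = 0.0788). Its dimmer probe set gave 0.41 with overlapping groups (adjusted p = 0.307), and set B minus set A was -0.41 with LPS in the fit (adjusted p = 0.000718). The kinase MAP3K8, which links the pathway to ERK, stood at 6.27, 6.33 and 6.46 in control and 6.63, 6.66 and 6.61 in LPS cells. Its control values were thus near the array medians. The difference was 0.29 (limma adjusted p = 0.0853), and 0.069 in its dimmer probe set, whose group means were 6.19 and 6.26. SOCS1, an inhibitor of cytokine and Toll signalling, stood at 7.40, 7.48 and 7.52 in control and 7.24, 7.20 and 7.04 in LPS cells, a difference of -0.31 (adjusted p = 0.133). Its 3 dimmer probe sets gave -0.084 to -0.042. TLR1, a receptor that pairs with TLR2, gave -0.42 (adjusted p = 0.208), and control 1 stood apart from the other controls, at 7.72 against 7.20 and 7.25. With array set as a block 6 of the 58 passed, 4 higher and 2 lower, where 2.02% of all genes did.

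**Figure D4:**
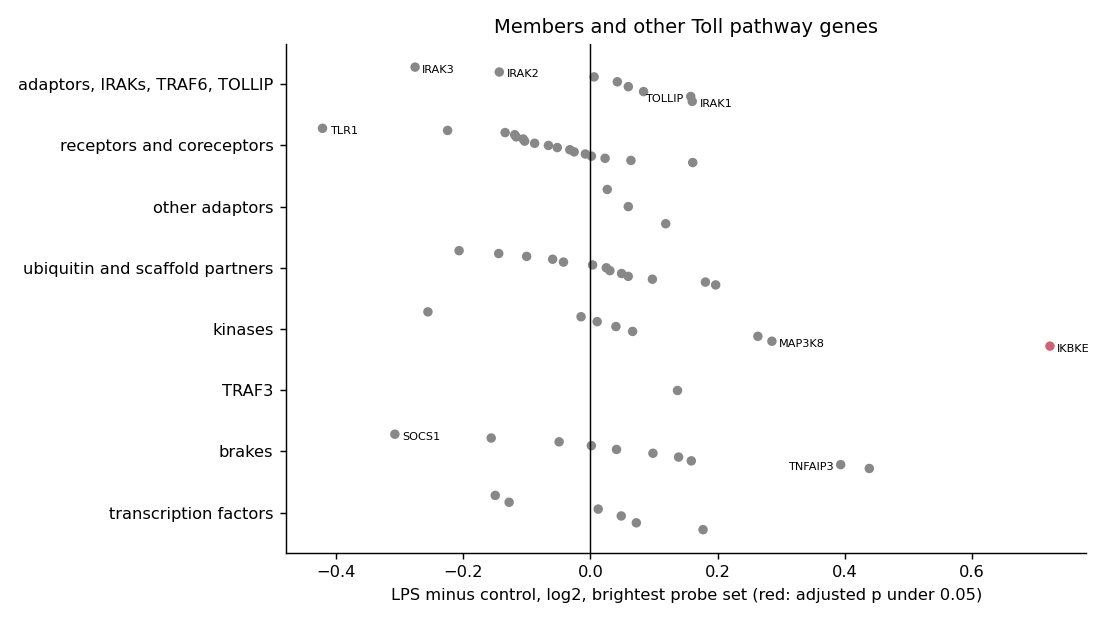
LPS minus control on the log2 scale (x axis) by the brightest probe set, for the 8 measured members (top row) and the 58 other Toll pathway genes by role; each point is a gene, spread within its row for visibility, and red marks an adjusted p under 0.05. Only IKBKE, at 0.72, is red, and the members lie between -0.28 and 0.16.

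By role, the 17 receptors and coreceptors had a median of -0.066 with 4 above 0, the 10 brakes a median of 0.070 with 7 above 0, and the 13 ubiquitin and scaffold partners a median of 0.025. The 8 kinases had a median of 0.053 and the 6 transcription factors one of 0.030. In none of these groups other than the kinases did a gene pass the limma test.

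Of the 19767 genes outside the members, those whose brightest probe set tracked IRAK3 most closely over the 6 arrays were ADAM32, UBTD2, TRAF5, LINC01561 and HSD17B6, with Pearson correlations of 0.998 down to 0.989. This is a description over 6 arrays that share the LPS contrast. None of the 5 passed the limma test, their LPS differences being -0.18 to -0.047. TRAF5, a signalling adaptor of the TNF receptor family and a relative of TRAF6, was at -0.18 (adjusted p = 0.440).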

How the data were processed

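The log2 values were made by the authors from biotin-labelled RNA on Affymetrix arrays, per the labels' protocols, and deposited as 1 value per probe set and array. The base is inferred from their range, 5.46 to 14.81. Their background correction, summary and normalisation are not given in the sources used here. Direction follows from the labelled columns. Affymetrix's own controls (62 probe sets) were not tested. Of the 54613 tested, 41091 had 1 gene symbol, 1801 several and 11721 none; 41037 identifiers matched RefSeq (GRCh38.p14) and 0 symbols changed. The brightest probe set, by the mean of all 6 arrays, stood for a gene.

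All 6 arrays were fitted with limma 3.58.1 in R 4.3.3, with group as the single term, an intensity trend, two-sided tests and Benjamini-Hochberg adjustment across the whole table. The fit without a block was tested on simulated arrays with no set effect and with changes larger than any of the members. The blocked fits were not tested in this way. The number of arrays limits the precision (median SE 0.063). Array sets were parted at the widest gap in the mean of 18 hybridisation controls (10.24 ± 0.045 and 10.57 ± 0.051, SD, n = 3 each). Named were all members, the pathway genes that passed, the next 4 by p, and 5 genes most like the leading member. Members, lists, tests and alternatives were chosen with earlier results of these data known.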

Additional observations from a re-analysis of the deposited data

Results flagged for a closer look

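A pair of probe sets outside the members had all 3 LPS values above all 3 controls, as did 7% of all probe sets. The pair was flagged for this separation. The platform annotation lists both under TICAM2 and under the read-through locus TMED7-TICAM2, so neither was assigned to a gene. The first, 228234_at, stood at 7.34, 7.32 and 7.29 in control and at 7.61, 7.64 and 7.68 in LPS cells, a difference of 0.33 (SE 0.065, limma adjusted p = 0.0600, and 0.0119 with array set as a block). The second, 239431_at, stood at 6.90, 6.88 and 6.84 in control and at 7.06, 7.15 and 7.07 in LPS cells, a difference of 0.22 (SE 0.061, adjusted p = 0.232, and 0.151 with the block). Within sets A and B the differences were 0.29 and 0.37 for the first and 0.21 and 0.21 for the second. Neither passed without the block, and the first passed with it, where 1.34% of all probe sets did.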

How the results depend on the processing

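Alternatives were blocks on array set or replicate number, quantile normalisation, median centring, a filter on dim probe sets, no intensity trend, array weights, no _x_at or _s_at probe sets, averaging the probe sets of each gene, and leaving out each array. The median member difference, 0.051, ran from 0.00095 to 0.080 over the 15 alternatives. IRAK1, IRAK2, IRAK3 and TICAM1 kept their direction in every alternative that gave a value. Without _x_at and _s_at probe sets IRAK1 had no value, and TOLLIP was at -0.056. MYD88 was at -0.063 with array set as a block and -0.054 after quantile normalisation. With single arrays left out, MYD88 ran from -0.047 to 0.088, TIRAP from -0.0054 to 0.081 and TRAF6 from -0.022 to 0.10.

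Array set as a block gave 734 called probe sets, against 144, with 1 member and 6 pathway genes. Quantile normalisation gave 292 called probe sets and 2 pathway genes, array weights 309 and 2, and no intensity trend 210 and 2. Leaving out _x_at and _s_at probe sets gave 82 called probe sets. Without single arrays 10 to 374 probe sets, 0 members and 0 to 3 pathway genes passed. The cause of these shifts was not tested. The labels do not say whether same-numbered samples were paired. Deviations from the group means correlated at 0.44, -0.040 and 0.23 between same-numbered arrays. Control 1 and LPS 1 share array set A, control 3 and LPS 3 share set B, and control 2 and LPS 2 lie in different sets. Arrays of different number in the same set correlated at 0.14 (control 1 and LPS 2) and 0.32 (control 2 and LPS 3). Control and LPS arrays that differed in both number and set correlated at -0.47 to -0.14. Whether same-numbered samples were paired was not tested. A replicate block gave 498 probe sets, 1 member (IRAK3, adjusted p = 0.0411) and 5 pathway genes. The blocked fits of IRAK3 with an array left out were chosen after seeing the data. Probe sets near the array medians limit what can be seen of TIRAP, IRAK2 and IRAK3.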
